A study of Mus musculus with 4 samples.

Results

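Plasminogen activation and the start of blood coagulation at the cell surface are described here through 9 genes: Plau, Plat, Plaur, S100a10, F3, Tfpi, Tfpi2, Thbd and Procr. The members were the probe sets of the array whose annotated symbol is exactly 1 of these names. Each gene had a single such probe set, so 9 of the 41345 probe sets, and 9 of the 22180 genes tested, make up the set. RNA came from 4T1, a mouse mammary carcinoma cell line, carrying either a scrambled short hairpin RNA (scramble, 2 arrays) or a hairpin against Ldha (shLDHA, 2 arrays). Ldha encodes the lactate dehydrogenase subunit that makes lactate from pyruvate. All cells were cultured for 24 hours in complete medium before 400 ng of total RNA was labelled. Cells with the Ldha hairpin were kept as a mixed population after puromycin at 10 µg/ml. The labels mention no selection of the scramble cells, and selection and knockdown cannot be told apart. They also name no separate cultures, so the spread that the p-values rest on is that of these arrays, possibly technical, and having only 4 of them limits precision.

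Urokinase (Plau) and tissue plasminogen activator (Plat) are proteases that cut plasminogen into plasmin, which dissolves fibrin and degrades matrix proteins. Urokinase works at the cell surface while bound to its receptor (Plaur), and S100a10 together with annexin A2 docks plasminogen and tissue plasminogen activator on the membrane. Tissue factor (F3) is the membrane receptor of factor VII that starts coagulation. It is held back by tissue factor pathway inhibitor (Tfpi), and thrombomodulin (Thbd) and the endothelial protein C receptor (Procr) turn thrombin towards activating the anticoagulant protein C. Carcinoma cells, mammary ones among them, are known to carry the urokinase receptor and tissue factor.

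Of the 9 genes, 4 were lower and 1 was higher in shLDHA by limma's test, and 4 did not pass. The falls were in Procr, Plat, Plaur and F3, and the rise was in Tfpi, whose probe set was dim. The threshold was an adjusted p (Benjamini-Hochberg, over all 22180 genes) below 0.05, which 6.36% of genes passed, 2.99% lower and 3.37% higher. The median log2 change of the 9 was -0.22, and that of all genes was 0.01. In these bulk samples fewer cells of a type and less RNA per cell cannot be told apart. The median size of change of the 9, with the sign ignored, was 0.50 against 0.11 for all genes. The 9 genes were chosen with earlier results of these data known, so these contrasts with all genes are no test of the set. Both arrays of a group lay beyond both of the other for 6 of the 9 genes, as they did for 50.3% of all genes.

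Upstream sequence is shown for the tissue factor gene and the protein C receptor gene, which fell, and for the tissue factor inhibitor gene, which rose, because these 3 are the members past the threshold below whose table windows reach outside the gene. The RefSeq promoter table (GRCm38.p6) matched 5 of the 9 members by symbol, with 8 windows in all, and the 250 bases before each annotated start were searched on both strands. Printed are the bases that also lie outside every annotated transcript of the gene, 5′ to 3′ on the gene's strand, with matches in capitals.

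F3, chr3:121723287-121723536, plus strand: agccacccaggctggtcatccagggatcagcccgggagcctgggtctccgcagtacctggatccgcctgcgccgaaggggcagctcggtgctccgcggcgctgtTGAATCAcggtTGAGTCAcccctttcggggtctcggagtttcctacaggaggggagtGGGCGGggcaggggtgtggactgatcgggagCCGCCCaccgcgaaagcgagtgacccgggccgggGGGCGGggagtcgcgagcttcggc
Procr, chr2:155750967-155751124, plus strand: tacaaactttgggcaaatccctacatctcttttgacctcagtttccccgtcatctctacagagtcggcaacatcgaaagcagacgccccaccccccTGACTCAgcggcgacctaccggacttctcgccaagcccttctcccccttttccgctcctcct
Tfpi, chr2:84476776-84477009, minus strand: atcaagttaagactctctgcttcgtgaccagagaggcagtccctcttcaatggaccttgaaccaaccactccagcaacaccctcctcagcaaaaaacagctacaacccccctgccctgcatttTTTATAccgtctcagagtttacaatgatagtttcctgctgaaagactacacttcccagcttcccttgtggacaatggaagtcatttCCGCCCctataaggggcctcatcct

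The 7 motifs searched were AP-1 (TGANTCA), the GC box (GGGCGG), Egr (GCGNGGGCG), the TATAAA element, the cAMP element (TGACGTCA), the E-box (CACGTG) and NF-kB, and the GC box and Egr letters can overlap. F3 held 2 AP-1 matches, at bases 146 to 140 and 135 to 129 before its start, and 3 GC boxes. Procr held an AP-1 match at bases 154 to 148 before its start. The Plaur window, which lies inside the span of another Plaur transcript and is not printed, held an AP-1 match at bases 69 to 63, 3 GC boxes and an Egr match. AP-1 letters were thus present in the windows of the 3 genes that fell and had a window, while Plat, which also fell, had none to search. They were in neither of the 2 Tfpi windows, each of which held a GC box. The printed Tfpi window also held TATAAA letters, on the other strand, at bases 127 to 122 before its start. Of the 3 Tfpi2 windows, 1 held AP-1 letters together with GC boxes and an Egr match, though Tfpi2 did not pass. A link between motifs and direction of change was not tested. Of all 32851 windows in the table, 6.75% held an AP-1 match, 32.7% a GC box, 4.70% an Egr match and 12.4% TATAAA. NF-kB letters were in 3.90% of all windows, cAMP element letters in 1.55% and E-box letters in 6.02%, and none of these 3 was found in the 8 windows of the members. A match is a description of letters and shows no binding.

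The arrays were alike in level after RMA, which itself brings arrays to a common level, and the targeted transcript was lower in shLDHA. Array medians over all probe sets lay between 3.87 and 3.90 on the log2 scale, and arrays correlated across genes, which are not independent replicates, at 0.997 within groups and 0.993 between them. Ldha read 6.69 and 6.96 in scramble and 6.31 and 6.15 in shLDHA, 1.51-fold lower (log2 change -0.59, SE 0.12, limma adjusted p = 0.0390). Epithelial markers were bright, with 7 of 7 above the level defined for dim probe sets below, and Epcam rose by 0.53 and Krt8 by 0.47 while Cldn7 changed by -1.06 (limma adjusted p = 0.0178, 0.0255 and 0.00242).

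Among the activators, Plat was clearly separated between the groups. Plat read 6.02 and 6.12 in scramble, then 5.40 and 5.50 in shLDHA. The gap between the groups was 0.52 on the log2 scale, against at most 0.10 between arrays of a group. Group means of 6.07 ± 0.07 (SD, n = 2) in scramble against 5.45 ± 0.07 (SD, n = 2) in shLDHA gave a 1.54-fold lower level (log2 change -0.62, SE 0.09, limma adjusted p = 0.0146).

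Plau, the gene of the other activator, did not pass. Plau read 8.44 and 8.55 in scramble and 8.19 and 8.36 in shLDHA. Both shLDHA arrays lay below both scramble arrays, but the gap of 0.08 was smaller than the 0.17 between the shLDHA arrays. The log2 change was -0.22 with a 95% interval of -0.46 to 0.01 (limma adjusted p = 0.260), so a fall of up to 1.37-fold lies inside the interval. The change was -0.14 without shLDHA replicate 1 and -0.31 without shLDHA replicate 2.

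The receptor gene Plaur was lower in shLDHA as well. Plaur read 9.15 and 9.08 in scramble and 8.51 and 8.57 in shLDHA. The groups did not overlap, with a gap of 0.51 against at most 0.07 within a group. The means of 9.11 ± 0.05 (SD, n = 2) and 8.54 ± 0.04 (SD, n = 2) gave a 1.49-fold lower level (log2 change -0.57, SE 0.08, limma adjusted p = 0.0159). Within arrays, the log2 difference Plaur minus Plau was lower by 0.35 in shLDHA on average, and from 0.21 to 0.50 lower over the 4 pairs of a shLDHA and a scramble array. The receptor and its ligand were thus unequally changed in each of these 4 pairs, with no test of the difference. Such pairs, here and below, reuse the same arrays and are not independent. The within-array differences given here and below were chosen after the values were seen.

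S100a10, the plasminogen docking protein gene, did not pass. S100a10 read 10.73 and 10.72 in scramble and 10.73 and 10.98 in shLDHA. One shLDHA array sat at the scramble level and the other above it. The log2 change was 0.13 (SE 0.11, 95% interval -0.13 to 0.39, limma adjusted p = 0.567), and the change ranged from 0.00 to 0.26 when 1 array was left out.

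**Figure D1:**
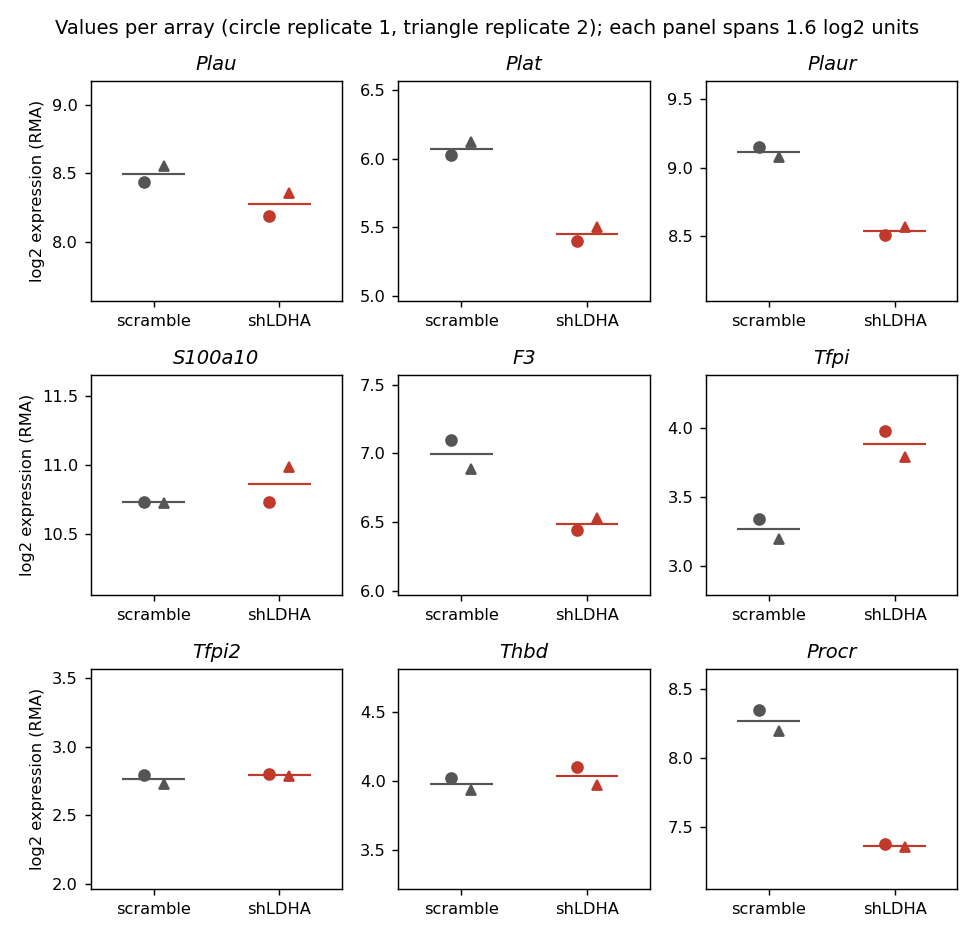
Log2 expression (RMA, y axis) of the 9 genes on each array, by group (x axis), with a circle for replicate 1, a triangle for replicate 2 and a line at the group mean; every panel spans the same range of log2 units. Procr, Plat, Plaur, F3 and, by a small gap, Plau lay lower and Tfpi higher on both shLDHA arrays, while the groups of S100a10, Tfpi2 and Thbd overlapped.

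On the coagulation side, F3, the tissue factor gene, was lower in shLDHA. F3 read 7.10 and 6.89 in scramble and 6.44 and 6.53 in shLDHA. The gap of 0.35 exceeded the 0.21 between the scramble arrays, and the groups did not overlap. With means of 6.99 ± 0.15 (SD, n = 2) in scramble against 6.49 ± 0.06 (SD, n = 2) in shLDHA, F3 fell 1.42-fold (log2 change -0.50, SE 0.10, limma adjusted p = 0.0400).

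Tfpi, the gene of the inhibitor of tissue factor, moved the other way. Tfpi read 3.34 and 3.19 in scramble and 3.98 and 3.79 in shLDHA. The groups were apart by 0.45, against 0.19 between the shLDHA arrays. The log2 change was 0.62 (SE 0.11), or 1.54-fold higher, with a limma adjusted p of 0.0231. The probe set was dim: its shLDHA mean of 3.88 ± 0.14 (SD, n = 2) was below 4.24, the 95th percentile of the brighter group mean over 1105 olfactory receptor genes, a family that carcinoma cells mostly leave silent. Values so low are compressed, and the fold of a gene there may understate its change. Of the 11419 genes below that level 0.876% passed limma's test, against 12.2% of the 10761 at or above it.

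Within arrays, F3 minus Tfpi was lower by 1.12 in shLDHA on average, and lower by 0.95 to 1.30 over the 4 array pairs, a description with no test. Tfpi2, which encodes a relative of Tfpi that inhibits plasmin and other proteases in the matrix, was dim as well. Tfpi2 read 2.79 and 2.73 in scramble and 2.80 and 2.79 in shLDHA, and the groups overlapped. Its log2 change was 0.03 (95% interval -0.16 to 0.23, limma adjusted p = 0.873).

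Procr, the protein C receptor gene, had the largest fall of the 9. Procr read 8.35 and 8.19 in scramble and 7.37 and 7.35 in shLDHA. The 2 shLDHA arrays were nearly equal, and the gap of 0.82 between the groups was far wider than the 0.15 between the scramble arrays. The means of 8.27 ± 0.11 (SD, n = 2) and 7.36 ± 0.02 (SD, n = 2) gave a 1.88-fold lower level (log2 change -0.91, SE 0.09, 95% interval -1.13 to -0.69, limma adjusted p = 0.00438). By size of change Procr ranked 210 among the 22180 genes.

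Thbd, the thrombomodulin gene, did not pass and was dim. Thbd read 4.02 and 3.93 in scramble and 4.10 and 3.97 in shLDHA, and the groups overlapped. Its log2 change was 0.06 (95% interval -0.16 to 0.28, limma adjusted p = 0.784). Procr minus Thbd within arrays was lower by 0.97 in shLDHA on average, from 0.88 to 1.06 lower over the 4 array pairs.

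**Figure D2:**
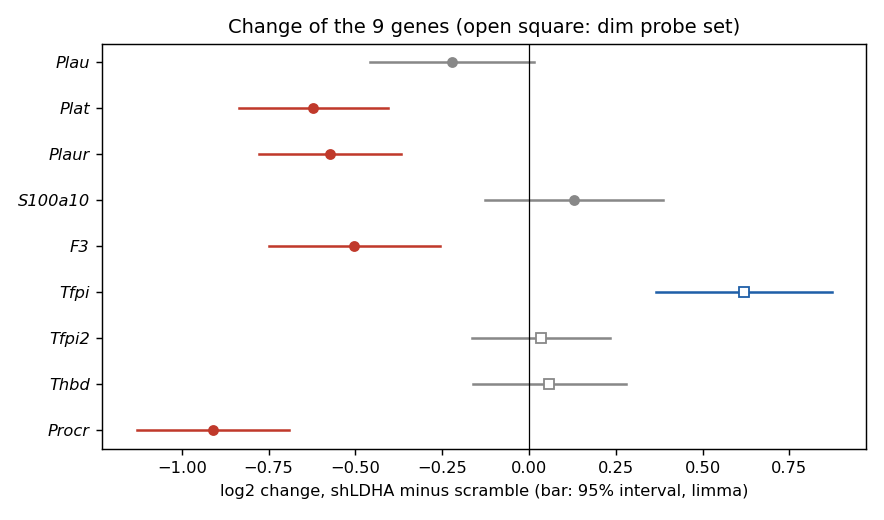
Log2 change (x axis, shLDHA minus scramble) of each of the 9 genes with limma's 95% interval as a bar, in red for a fall and blue for a rise past the threshold, in grey otherwise, and as an open square where the probe set was dim. The intervals of Plat, Plaur, F3 and Procr lay below 0 and that of Tfpi above it.

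The intervals of the 4 falls overlapped, and differences in size among them were not tested. Each array was then left out in turn, which leaves 1 array in a group, so that the spread comes from the 2 arrays of the other group and limma's prior, and the lone array is assumed to vary like them. Procr passed in all 4 of these fits, with limma adjusted p from 0.00738 to 0.0365. Plat passed only in that without scramble replicate 1 (adjusted p = 0.0345), as did Tfpi (0.0413). Plaur and F3 passed only in that without scramble replicate 2 (0.0461 and 0.0482). So 3 of the 9 passed without either scramble array and 1 without either shLDHA array, in fits with 1 residual degree of freedom in place of 2. The groups of Procr, Plat, Plaur, F3 and Tfpi did not overlap, so leaving out 1 array could not reverse a change. In these fits the changes ran from -0.99 to -0.83 for Procr, -0.67 to -0.57 for Plat and -0.61 to -0.54 for Plaur. They ran from -0.61 to -0.40 for F3 and from 0.52 to 0.72 for Tfpi.

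None of the 9 passed when limma was fitted to all 41345 probe sets, including those with no gene symbol. Procr then had an adjusted p of 0.0593, Plat 0.0988, Plaur 0.101, Tfpi 0.128 and F3 0.164, with the log2 changes as before. In that fit 0.310% of probe sets passed, and the prior degrees of freedom were 2.67, against 4.52 over genes.

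**Figure D3:**
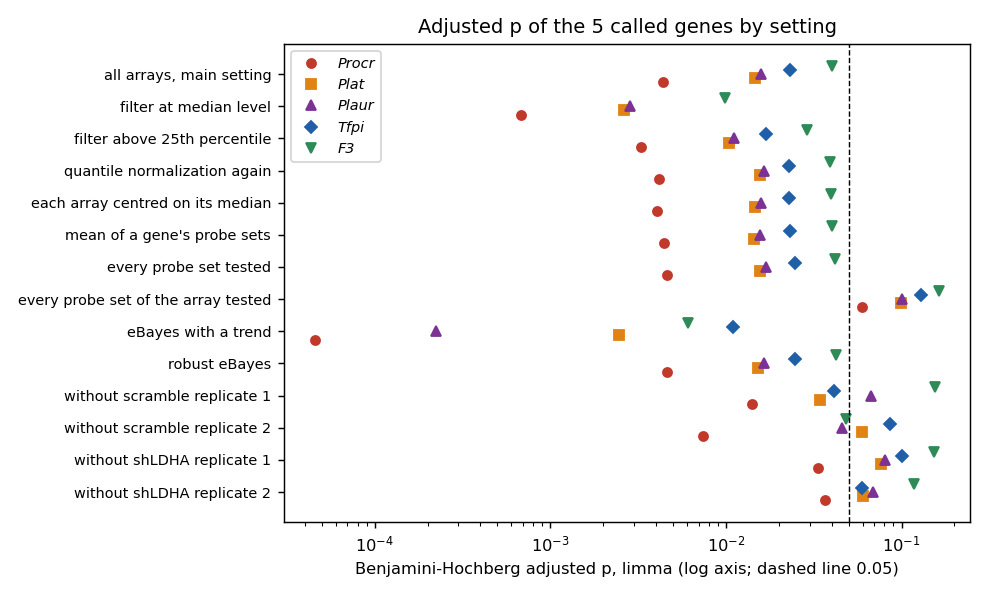
Limma adjusted p (x axis, log scale) of the 5 genes that passed, for the main setting and the alternative ways of processing in rows, with a dashed line at the threshold. Settings in which a gene was filtered out have no point. The fit with the replicate number as a block, in which F3 had a limma adjusted p of 0.0751, is not drawn. Procr stayed left of the line in every row shown except the fit of every probe set of the array.

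The other genes of the plasminogen system did not reach the threshold. Of 22 entries on the list, 17 matched a tested gene, and 9 of these were dim. Limma's test was passed by 0 of the 17 and by 6.36% of all genes, 0.876% of dim ones and 12.2% of the others. An unadjusted p under 0.05 was seen for 6 of the 17 and for 21.5% of all genes. The other 5 entries were not analysed here. The median log2 change was -0.13, and 10 of the 17 had a negative change. Of the brightest members, the integrin subunit genes Itgav and Itgb1, whose products bind vitronectin and other matrix proteins and partner with the urokinase receptor, had log2 changes of -0.37 (limma adjusted p = 0.0605) and -0.35 (0.0814). Itga3, another integrin subunit, had -0.16 (0.332), and Anxa2, which encodes the annexin that binds S100a10, had -0.14 (0.403). Outside the rule for named genes, and named after the values were seen, were Lrp1 and Serpinb2. Lrp1, an endocytic receptor gene whose product clears urokinase with its inhibitor, had -0.24 (0.177). Serpinb2, which encodes a urokinase inhibitor, had -0.48 (0.114) from a dim probe set with a wide interval of -0.82 to -0.14. With variance modelled as a trend of level, Itgav, Itgb1 and Lrp1 passed as lower, and with genes under the median level left out Itgav and Itgb1 did.

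Of 29 entries for the coagulation cascade, 28 were tested and 22 of these were dim. By limma's test 1 rose and 1 fell, both dim, where 3.37% of all genes rose and 2.99% fell. The count is thus near the share over all genes, which is a poor yardstick for a mostly dim list. Of all dim genes 0.876% passed, against 12.2% of the others. Pros1, which encodes protein S, the cofactor of activated protein C and of Tfpi, read 3.74 and 4.00 in scramble and 3.34 and 3.25 in shLDHA. Its log2 change was -0.57 (SE 0.11, limma adjusted p = 0.0351). F8, the gene of coagulation factor VIII, read 3.56 and 3.66 in scramble and 4.04 and 4.10 in shLDHA, a log2 change of 0.46 (SE 0.09, limma adjusted p = 0.0329). Neither group pair overlapped. Pros1 passed without scramble replicate 1 only, and F8 in no fit that left out an array.

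None of the 4 brightest others passed. F2r, the thrombin receptor gene, had a log2 change of -0.02 (95% interval -0.23 to 0.18), and Vkorc1 and Vkorc1l1, of vitamin K reduction, had -0.04 and 0.09. Lman1, which encodes a cargo receptor for factors V and VIII, had 0.32 (SE 0.08, limma adjusted p = 0.0829). The median log2 change of the 28 was 0.02, and the median size 0.08, against 0.11 for all genes.

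**Figure D4:**
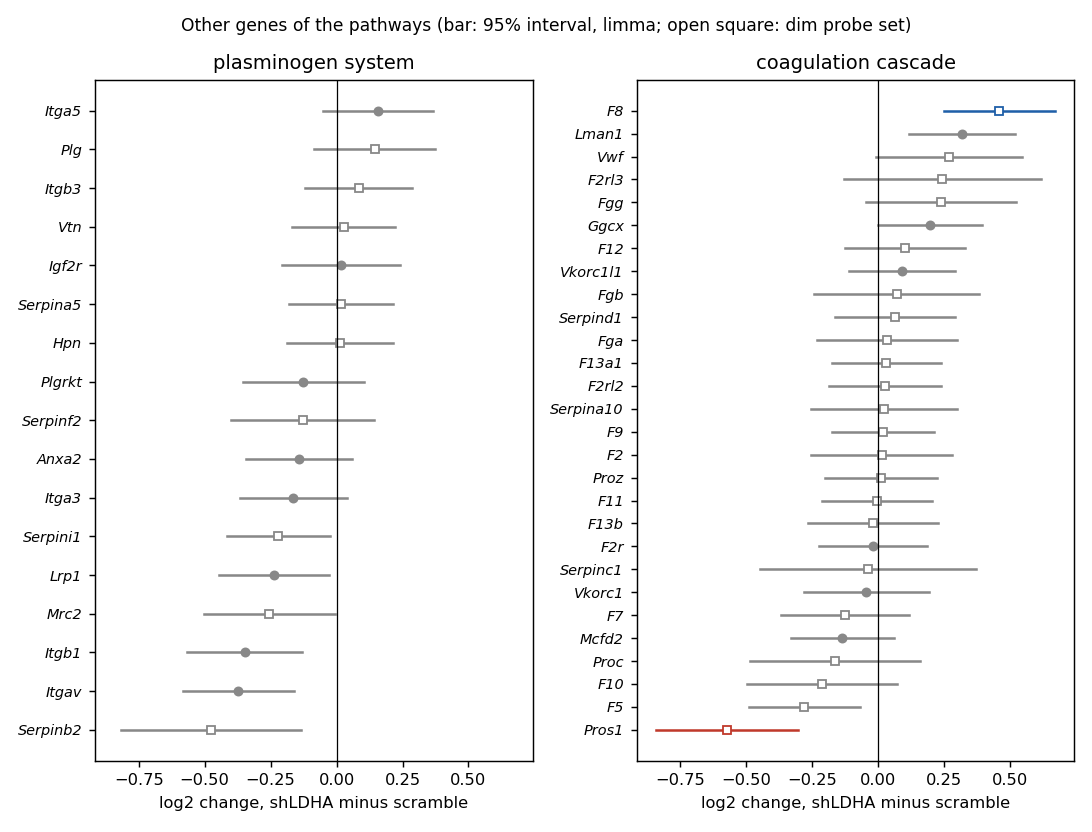
Log2 change (x axis, shLDHA minus scramble) with limma's 95% interval for 17 other genes of the plasminogen system (left) and 28 of the coagulation cascade (right), coloured where past the threshold and open where dim. Only Pros1 (red, lower) and F8 (blue, higher) were coloured, and 10 of the 17 points on the left lay below 0.

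Plat, Tfpi, Thbd and Procr are typical of endothelium, F3 and Thbd also of monocytes, and markers of such cells were read from the same arrays. All 12 endothelial markers were dim and 0 passed limma's test, with 1 at an unadjusted p under 0.05. Over all genes these shares were 6.36% and 21.5%. Of all dim genes only 0.876% passed limma's test. The 0 passing among dim markers, of endothelium here or fibroblasts below, therefore shows little. Their summed log2 level was 36.8 to 37.1 in scramble and 37.1 to 37.4 in shLDHA, sums of values at the dim end of the scale. Of 11 leukocyte and macrophage markers 8 were dim, the pan-leukocyte Ptprc at means of 2.72 in scramble and 2.67 in shLDHA among them. Not dim were Cd68, Cd14 (5.75 in scramble and 5.65 in shLDHA) and Fcer1g (4.61 and 4.56). The summed level of the 11 was 41.6 to 42.1 in scramble and 41.1 to 41.6 in shLDHA. Cd68, a lysosomal protein gene, was the 1 that passed (log2 change -0.91, limma adjusted p = 0.00516). An unadjusted p under 0.05 was seen for 2, Cd68 and the dim Adgre1, which was higher by 0.26 (limma adjusted p = 0.195). Of 8 fibroblast markers 7 were dim and 0 passed, with 1 at an unadjusted p under 0.05. Pdgfra was not dim, at means of 6.52 in scramble and 6.49 in shLDHA. The summed level of the 8 was 28.7 to 29.2 in scramble and 28.4 to 28.9 in shLDHA. The part of endothelial cells, leukocytes or fibroblasts in the results was not tested.

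Genes lying next to the members on the chromosome were read in the RefSeq order, outside the rule for named genes. Of the 10 neighbours of the 5 genes that passed, 0 passed limma's test, which 6.36% of all genes passed. So few genes cannot show whether neighbours differ from that share. Edem2 and Mmp24, on either side of Procr, had log2 changes of 0.01 and -0.08. Irgc1 and Cadm4 beside Plaur had 0.08 and 0.25, and Ikbkb and Ap3m2 beside Plat had -0.02 and -0.26. 4930432M17Rik and Abcd3 beside F3 had -0.29 and 0.03, and Calcrl and Ctnnd1 beside Tfpi had -0.15 and -0.01. S100a11, the neighbour of S100a10 and another S100 gene, had -0.03. Over all 9 members, 1 of 18 neighbours passed: Vcl, the vinculin gene next to Plau, was higher by 0.41, with a limma adjusted p just under the threshold.

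Genes with the most similar values over the 4 arrays were found for the 3 members with the smallest p, by Euclidean distance after centring each gene on its mean, among 10425 named genes at or above the median level. For Procr they were Micu3, Plac9a and Otud1, at distances of 0.03, 0.04 and 0.04 on the log2 scale, with log2 changes of -0.88, -0.93 and -0.87. For Plat they were Cobl, Noct and Bysl (distances 0.01, 0.04 and 0.05). For Plaur they were Gnpnat1, Pou4f1 and Spire2 (0.02, 0.03 and 0.04). With 4 arrays, such likeness mostly restates the size of the change.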

How the data were processed

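Log2 expression values of 41345 probe sets were deposited by the authors, with RMA and R (3.4.0) as the tools that the submitters' processing notes name; annotation version and build are not given in the sources used here. Groups and replicate numbers came from the sample titles, and 0 value columns were left out. A platform table gave 1 symbol for 23521 probe sets; the brightest probe set per gene was kept, giving 22180 genes, with no filter on level. The comparison used limma 3.58.1 under R 4.3.3 (lmFit, eBayes; two-sided; 2 residual and 4.52 prior degrees of freedom), with Benjamini-Hochberg adjustment; the code was tested on simulated data. An exact permutation test of 2 against 2 arrays cannot go below p = 0.333 and was not used. Members and lists were chosen with earlier results of these data known. The rule named all 9 members and Ldha, list genes past the threshold, the 4 brightest others per pathway list, and the 3 genes nearest to each of 3 members. Alternatives are given in the closing section. Figures were drawn with matplotlib 3.10.9.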

Additional observations from a re-analysis of the deposited data

How the results depend on the processing

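Of the 14 alternative settings, 1 (the fit of every probe set of the array) was chosen after seeing the data. No called gene of the members or the pathway lists changed direction, but these settings could hardly have shown a reversal. Most leave the log2 change as it was or nearly so, and the groups of these genes did not overlap, so leaving out 1 array cannot reverse it. The count of members past the threshold was 5 in 7 of the 9 planned settings with all 4 arrays, 1 of which (the filter at the 25th percentile) left out Tfpi2; it was 4 with the filter at the median level, which left out Tfpi, Tfpi2 and Thbd; it was 0 with every probe set of the array and 1 to 3 without 1 array. The replicate number as a block gave 4, F3 being the loss (adjusted p = 0.0751); same-numbered arrays did not deviate together (correlation -0.03 across genes), so they share only a number. The count over all genes was 1410; it was 838 with the replicate block, 2836 with genes under the median level left out, 2806 with eBayes with a trend, 128 with every probe set of the array, and 370 to 636 without 1 array. Plasminogen system genes called were 0, and 2 or 1 with a filter at the median level or the 25th percentile, 3 with the trend, and 0 without any 1 array. Coagulation cascade genes called were 2, and 0 with the replicate block, 1 with the filter at the median level (Lman1, with Pros1 and F8 left out), 3 with the trend, 0 with every probe set of the array, and 0 to 1 without 1 array. Ldha lost its call with the block (0.0734), with every probe set of the array (0.168), and without scramble replicate 2, shLDHA replicate 1 or shLDHA replicate 2 (0.128, 0.0965 and 0.163). The causes were not tested, except that fits without 1 array have fewer samples. Dim probe sets, Tfpi, Tfpi2 and Thbd among them, limit what the folds can show.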
